A study of Mus musculus with 7 samples.

Results

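The genes that rearrange immunoglobulin loci and that build the pre-B cell receptor were measured by RNA-seq in 7 lymphoma cell lines of the mouse. The set holds 8 genes, Rag1, Rag2, Dntt, Vpreb1, Vpreb2, Vpreb3, Igll1 and Il7r, out of 27179 genes counted in each library, and they were chosen by name, with the Entrez identifier of each row matched to its symbol. All 8 were present in every table. Of these, 7 passed the filter of at least 0.5 CPM (counts scaled to a common library size) in 3 or more libraries, and Vpreb2 did not. For each gene the count and the CPM of every line were read as a description of the B cell stage of that line, and the lines were then compared by genotype.

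All 7 lines came from end-stage lymphomas of C57BL/6 males that carried the Eµ-Myc transgene, in which an immunoglobulin heavy chain enhancer drives Myc in B lineage cells. The 3 wild-type lines have intact Smchd1, which encodes a chromatin factor known for a role in silencing. The 4 Smchd1 null lines are homozygous for what the labels call a gene trap of Smchd1, whereas the methods of the study name the allele MD1. Ages were not given, and the labels do not say whether any lines shared a mouse. Each line is taken here as a culture of 1 tumour, and whether its cells share 1 stage or 1 set of rearrangements was not tested.

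V(D)J recombination joins variable, diversity and joining segments into an immunoglobulin gene. It is started by a recombinase made of the RAG1 and RAG2 proteins, and terminal transferase, the product of Dntt, adds nucleotides that no template encodes at the joins of the heavy chain. A precursor B cell that has a heavy chain but no light chain pairs the heavy chain with the surrogate light chain, built from a VpreB protein (Vpreb1 or Vpreb2) and lambda5 (Igll1). The receptor for interleukin 7, of which Il7r encodes the alpha chain, supports growth at these stages in the mouse. All of these genes are normally turned down before the mature stage, whereas Vpreb3, which encodes a chaperone-like relative of VpreB, is also found in later B cells.

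The libraries held between 3626853 and 7519549 counts in total, and a level of 3 counts corresponded to between 0.399 and 0.8272 CPM. Wild-type line 1 was the shallowest library and was the single member of batch 1, with single-end reads, whereas the other 6 libraries were read as pairs in batch 2. Wild-type lines 2 and 3 lay 1.265 apart in leading log2 fold change distance, over the 500 genes that differ most for each pair, and all other pairs lay between 3.109 and 5.227. Sample weights were lowest for wild-type line 1 (0.2458) and Smchd1 null line 4 (0.2492) and highest for wild-type lines 2 and 3 (3.785 and 3.059), which therefore carried the most weight in the comparison of genotypes. Smchd1 itself averaged 232.4 ± 14.85 CPM (SD, n = 3) in the wild-type group and 26.47 ± 2.854 CPM (SD, n = 4) in Smchd1 null lines, with a log2 fold change of -3.16. Its counts matched the labels in all 7 libraries. Heavy chain constant region transcripts of Ighm stood between 1627 and 2471 CPM in all 7 lines, and those of Cd79b between 262.4 and 444.4 CPM.

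The sequences of Vpreb1 and Vpreb2 are shown first, because they bear on how far the counts of both genes can be trusted. Vpreb1 lies on chromosome 16 from 16868401 to 16869255 on the minus strand, and Vpreb2 on the same chromosome from 17979445 to 17981274 on the plus strand (RefSeq, GRCm38.p6), with 1109584 bases between them in the GENCODE M21 models. Their coding sequences have 429 bases each, of which 420 are identical (97.9%). The longest run without a difference is 196 bases, longer than the reads of the study, and how reads that match both copies were treated is not given in the sources used here. Of the 9 bases that differ, 6 lie in the last 150 bases of the coding sequence, printed here 5′ to 3′ from base 280 to the stop codon with the differing bases in capitals.
Vpreb1, chr16:16868596-16868745, minus strand: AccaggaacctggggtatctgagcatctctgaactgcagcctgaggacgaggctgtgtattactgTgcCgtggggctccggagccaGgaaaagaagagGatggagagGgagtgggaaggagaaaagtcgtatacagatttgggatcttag
Vpreb2, chr16:17980931-17981080, plus strand: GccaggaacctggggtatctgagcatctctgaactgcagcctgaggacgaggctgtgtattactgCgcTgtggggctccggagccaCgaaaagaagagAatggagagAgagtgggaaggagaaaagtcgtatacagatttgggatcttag
Counted from 1 at the start codon, with the base of Vpreb1 first, the differences were T37C, T39C, T83C, A280G, T345C, C348T, G366C, G378A and G387A. The similarity extends upstream. A stretch of 103 bases ends 4 bases before the RefSeq start of Vpreb1, and its match ends 148 bases before the coding start of Vpreb2, with 102 identical bases (99.03%) and a single difference, G12T, in capitals.
Vpreb1, chr16:16869259-16869361, minus strand: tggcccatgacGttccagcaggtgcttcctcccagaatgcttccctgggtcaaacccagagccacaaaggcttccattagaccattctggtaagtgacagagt
Vpreb2, chr16:17980315-17980417, plus strand: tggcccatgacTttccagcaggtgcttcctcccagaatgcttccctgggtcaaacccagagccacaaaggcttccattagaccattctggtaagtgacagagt
The deposited length of Vpreb2 was 429 bases, the coding sequence alone, against 768 bases for Vpreb1. Vpreb3 and Igll1 were much less alike to Vpreb1 over the coding sequence, at 42.73% and 37.72% identity by global alignment, with no identical run beyond 12 and 8 bases.

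Rag1, the nuclease subunit of the recombinase, was present in all 3 wild-type lines and differed widely among them. It had 457, 51 and 32 counts in wild-type lines 1 to 3, or 126, 8.365 and 4.69 CPM. In Smchd1 null lines 1 to 4 it had 0, 0, 54 and 4 counts, or 0, 0, 8.34 and 0.5319 CPM. Wild-type line 1 was thus 15.06 times the next line, and Smchd1 null line 3 stood at the level of wild-type line 2, with 95% counting intervals of 6.266 to 10.88 and 6.228 to 11 CPM (exact Clopper-Pearson, counting error only). The groups overlapped, and the intervals of the 0 counts in Smchd1 null lines 1 and 2 reached up to 0.5463 and 0.5925 CPM.

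Rag2, the partner that RAG1 needs for cutting, was also highest in wild-type line 1 and had a lower count than Rag1 in every line that expressed it. Its counts were 94, 18 and 11 in wild-type lines 1 to 3, equal to 25.92, 2.952 and 1.612 CPM. In Smchd1 null lines it had 35 counts (5.406 CPM) in line 3 and 0 in lines 1, 2 and 4. The intervals of Smchd1 null line 3 (3.765 to 7.518 CPM) and wild-type line 2 (1.75 to 4.666 CPM) overlapped, and the difference between these neighbours was not tested. Scaled by gene length, which allows levels to be compared between genes, Rag1 reached 18.89 RPKM (CPM divided by the gene length in kilobases) and Rag2 7.639 RPKM in wild-type line 1. The ratio of Rag1 to Rag2 in RPKM was 2.473, 1.442 and 1.48 in wild-type lines 1 to 3 and 0.785 in Smchd1 null line 3. Every line with at least 3 counts of Rag2 also had at least 3 of Rag1.

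Rag1 (chr2:101638252-101649532, minus strand) and Rag2 (chr2:101624712-101632528, plus strand) are neighbours that point towards each other, 5752 bases apart in GENCODE M21, and the 250 bases before the RefSeq start of each are printed because both genes were highest in the same line. Capitals mark matches to the E-box CANNTG, the letters bound by E2A proteins among others, on either strand.
Rag1, chr2:101649533-101649782, minus strand: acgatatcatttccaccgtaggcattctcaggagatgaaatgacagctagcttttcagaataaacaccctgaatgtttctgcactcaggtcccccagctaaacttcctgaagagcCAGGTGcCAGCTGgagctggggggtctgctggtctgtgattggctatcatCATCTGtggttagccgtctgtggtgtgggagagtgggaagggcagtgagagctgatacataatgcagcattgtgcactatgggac
Rag2, chr2:101624462-101624711, plus strand: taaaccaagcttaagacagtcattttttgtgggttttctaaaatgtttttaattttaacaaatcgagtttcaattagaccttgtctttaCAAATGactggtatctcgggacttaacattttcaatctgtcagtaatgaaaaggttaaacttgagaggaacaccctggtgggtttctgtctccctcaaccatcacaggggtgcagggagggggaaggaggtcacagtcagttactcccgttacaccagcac
The window of Rag1 held 3 E-boxes, of which 1 was CAGCTG, 128 to 123 bases before the start, and that of Rag2 held 1. Over 32851 RefSeq promoter windows of this length, 66.22% held CANNTG and 13% held CAGCTG. A match describes the letters in the window and not binding. Exons of both genes overlap those of B230118H07Rik (Iftap in RefSeq) on the minus strand in GENCODE M21, and strand use in the counting is not given in the sources used here. Counts assigned to Iftap were 4, 0 and 1 in wild-type lines and 0, 0, 1 and 87 in Smchd1 null lines 1 to 4. Its highest line, Smchd1 null line 4, had 4 counts of Rag1 and 0 of Rag2. The part of the overlap in the counts of Rag1 and Rag2 was not tested.

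Dntt was abundant in 1 line and near or below the 3-count level in most others. Smchd1 null line 1 had 648 counts (95.97 CPM, interval 88.72 to 103.6), or 45.05 RPKM. Wild-type lines 1 to 3 had 0, 5 and 21 counts (0, 0.8201 and 3.078 CPM), and Smchd1 null lines 2 to 4 had 2, 0 and 1 counts. The line with high Dntt had no count of Rag1 or Rag2, and the line with the highest Rag1 had no count of Dntt. The highest line was 31.18 times the next, wild-type line 3 (interval 1.905 to 4.705 CPM), whose interval overlapped that of wild-type line 2 (0.2663 to 1.914 CPM).

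The level of the 8 genes in every line is plotted on 1 common scale.

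**Figure D1:**
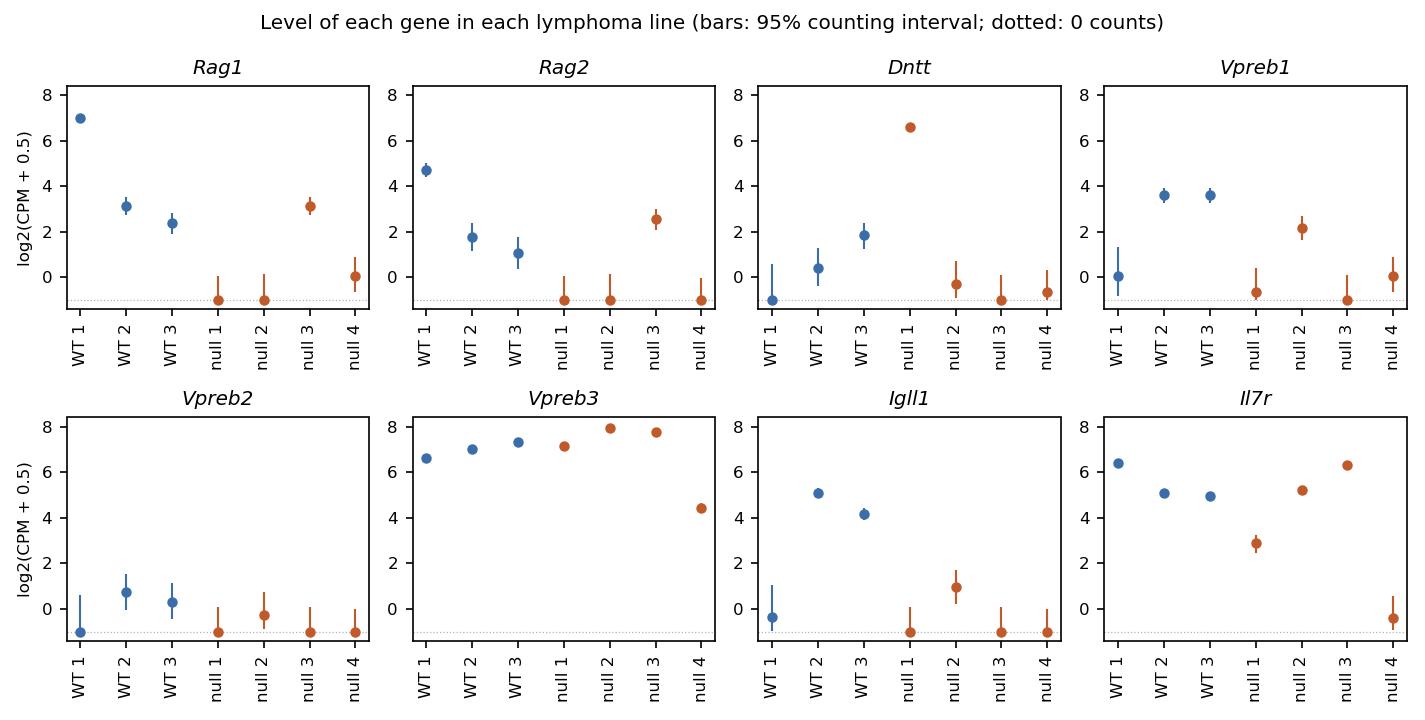
Points give log2(CPM + 0.5) of each gene in each line, in blue for the 3 wild-type (WT) and in orange for the 4 Smchd1 null lines, with 95% counting intervals as bars and a dotted line at 0 counts. Rag1 and Rag2 are highest in WT 1 and reach null 3, Vpreb1 and Igll1 are highest in WT 2 and WT 3 with null 2 next, Dntt is high in null 1 alone, and Vpreb3 is present in all 7 lines.

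Among the surrogate light chain genes, Igll1 and Vpreb1 were highest in wild-type lines 2 and 3. Igll1, which encodes lambda5, had 1, 205 and 119 counts in wild-type lines 1 to 3, or 0.2757, 33.63 and 17.44 CPM. Of the Smchd1 null lines, line 2 had 9 counts (1.446 CPM) and lines 1, 3 and 4 had 0. Wild-type lines 2 and 3 differed from each other beyond counting error (29.18 to 38.56 against 14.45 to 20.87 CPM). Wild-type line 1 lay with the Smchd1 null lines, and its interval of 0.006981 to 1.536 CPM overlapped that of Smchd1 null line 2.

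Vpreb1 had 2, 72 and 79 counts in wild-type lines 1 to 3, or 0.5514, 11.81 and 11.58 CPM, and the intervals of the latter pair overlapped. In Smchd1 null lines 1 to 4 it had 1, 25, 0 and 4 counts, or 0.1481, 4.015, 0 and 0.5319 CPM. Smchd1 null line 2 (2.599 to 5.928 CPM) stood between these groups of lines, above wild-type line 1 and below wild-type lines 2 and 3. Vpreb2 had 0, 7 and 5 counts in wild-type lines and 2 counts in Smchd1 null line 2, with 0 in the other 3 null lines. Its 3 lines with any count were the 3 lines highest in Vpreb1, and with near-identical sequences reads of either gene may have been placed on the other. Vpreb1 exons also overlap those of Top3b on the plus strand in GENCODE M21. Top3b stood between 36.73 and 77.93 CPM in all 7 lines, highest in Smchd1 null line 4, where Vpreb1 had 4 counts. The part of this overlap in the counts of Vpreb1 was not tested.

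Igll1 (chr16:16860671-16863985) and Vpreb1 share the minus strand of chromosome 16, with 4417 bases between them. The 250 bases before the RefSeq start of Igll1 are printed with the E-box and the EBF1 core CCCNNGGG in capitals, because Igll1 held the only match to that core among the 8 windows.
Igll1, chr16:16863986-16864235, minus strand: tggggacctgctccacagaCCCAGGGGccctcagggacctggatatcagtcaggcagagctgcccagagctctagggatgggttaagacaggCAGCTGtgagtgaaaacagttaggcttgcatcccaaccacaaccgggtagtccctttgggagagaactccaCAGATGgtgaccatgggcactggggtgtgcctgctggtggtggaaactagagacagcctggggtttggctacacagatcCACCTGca
The core was CCCAGGGG, 231 to 224 bases before the start, and 11.82% of all windows held such a match. The 3 E-boxes began 158, 87 and 8 bases before the start, the first of them CAGCTG. The stretch upstream of Vpreb1 that is printed above holds 1 E-box, CAGGTG, and a FOXO motif (TGTTTAC, found in 3.166% of all windows) was in none of the 8 windows. The window of Vpreb2 in the RefSeq table ends at the start codon, so it is not comparable in position.

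Vpreb3, which is located on chromosome 10 (75943024 to 75949657), was the member present in every line. It had 97.61, 129.7 and 162 CPM in wild-type lines 1 to 3 and 139.9, 241.3, 215.5 and 21.01 CPM in Smchd1 null lines 1 to 4. The group means were 129.8 ± 32.17 CPM (SD, n = 3) and 154.4 ± 98.78 CPM (SD, n = 4). Per length it had the highest level of the 8 genes in all 7 lines. Its median over the lines was 232.5 RPKM, against 10.32 RPKM for Il7r and below 1 RPKM for the other 6. Smchd1 null line 4 was the lowest, with 158 counts.

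Il7r (chr15:9506159-9529941, minus strand) had at least 3 counts in 6 lines. Its levels were 84.37, 33.13 and 30.05 CPM in wild-type lines 1 to 3 and 6.812, 36.62, 79.39 and 0.266 CPM in Smchd1 null lines 1 to 4. Wild-type line 1 (75.18 to 94.37 CPM) and Smchd1 null line 3 (72.67 to 86.56 CPM) had overlapping intervals, as had wild-type line 2 and its neighbours in level, Smchd1 null line 2 and wild-type line 3. The 2 highest lines for Il7r were wild-type line 1 and Smchd1 null line 3, which were also the 2 highest for Rag2. Its window held a STAT motif (TTCNNNGAA) as TTCAGGGAA, 142 to 134 bases before the RefSeq start used, and 7.02% of all windows held one.

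Summed over genes, the recombinase and the surrogate light chain were high in different lines. The sum of Rag1 and Rag2 was 151.9, 11.32 and 6.302 CPM in wild-type lines 1 to 3 and 0, 0, 13.75 and 0.5319 CPM in Smchd1 null lines 1 to 4. The sum of Vpreb1, Vpreb2 and Igll1 was 0.8272, 46.58 and 29.75 CPM in the wild-type and 0.1481, 5.782, 0 and 0.5319 CPM in the Smchd1 null lines. Both sums exceeded 1 CPM only in wild-type lines 2 and 3. Light chain constant region transcripts (Igkc and Iglc1 to Iglc3, a comparison chosen after the values were seen) were present in all lines, from 433.5 CPM in Smchd1 null line 4 to 2292 CPM in Smchd1 null line 2. On the RPKM scale the surrogate light chain made up at most 2.084% of surrogate and conventional light chain transcripts, in wild-type line 2, and 0.1065% or less in every Smchd1 null line and wild-type line 1. The lambda share of light chain CPM was 34.11% in wild-type line 1 and 35.92% in Smchd1 null line 4, against 0.6728% to 4.921% in the other 5. In bulk samples such as these, fewer cells of a type and less RNA per cell cannot be told apart.

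**Figure D2:**
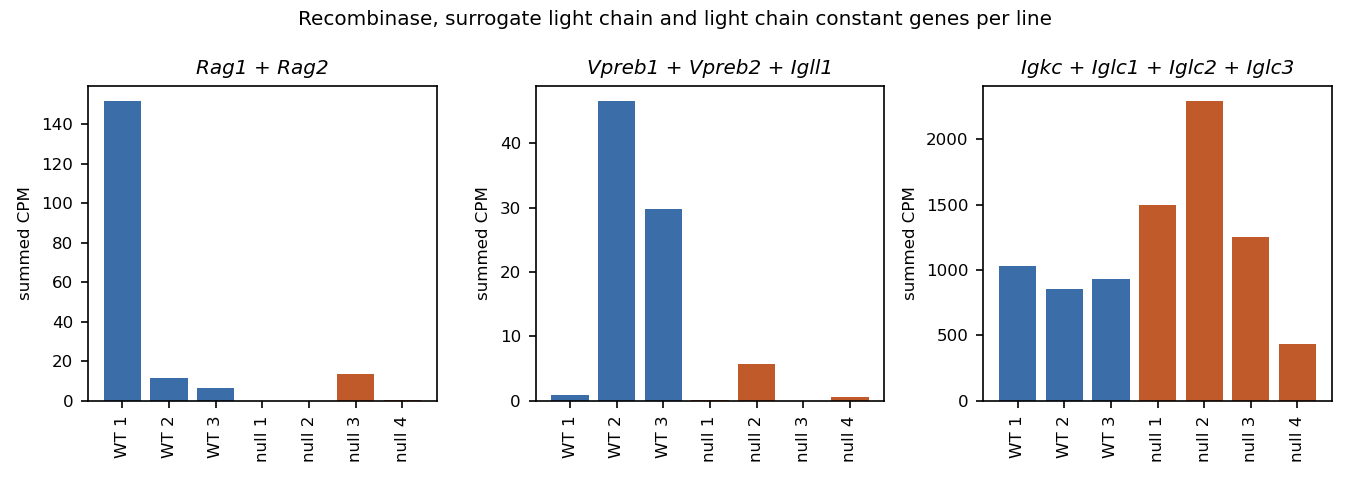
Bars give summed CPM per line, starting at 0, for the recombinase genes, the surrogate light chain genes and the light chain constant region genes, with wild-type (WT) lines in blue and Smchd1 null lines in orange; the vertical scales differ between panels. The recombinase sum is highest in WT 1 (151.9 CPM), the surrogate light chain sum in WT 2 (46.58 CPM), and light chain transcripts are above 400 CPM in all 7 lines.

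To ask whether these genes differ between genotypes, Smchd1 null lines were compared with wild-type lines in 1 fit over all 12303 genes, voom with sample weights, with the false discovery rate (FDR) adjusted over all of them. None of the 7 members tested was differentially expressed (DE) at an FDR under 0.05, whereas 11.9% of all genes tested were. At an unadjusted p under 0.05, 4 members passed (Rag1, Rag2, Vpreb1 and Igll1, all lower in Smchd1 null lines), beside 31.8% of all genes. At an FDR under 0.1, Rag1, Rag2 and Vpreb1 passed, that is 3 of 7, beside 22.7% of all genes. No member separated the groups, in that the CPM of all 7 overlapped between genotypes, whereas 13.2% of all genes tested did not overlap. A member such as Igll1 or Dntt entered the test through 3 lines only, so the counts over members that passed the filter are given as a description.

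The estimates for the recombinase genes were large and imprecise. Rag1 averaged 46.35 ± 69 CPM (SD, n = 3) in wild-type and 2.218 ± 4.089 CPM (SD, n = 4) in Smchd1 null lines, and Igll1 averaged 17.11 ± 16.68 and 0.3614 ± 0.7228 CPM, so that each SD in these groups was close to or above its mean. The log2 fold change of Rag1 was -4.77 ± 1.608 (SE) with an FDR of 0.08675, and that of Rag2 -3.63 ± 1.286 with an FDR of 0.09772 (voom with sample weights, n = 3 and 4). On the same scale Vpreb1 was at -4.115 ± 1.263 (FDR 0.06899) and Igll1 at -6.427 ± 2.55 (FDR 0.1274). Estimates for Rag1, Rag2, Vpreb1 and Igll1 rest in part on null lines with 0 counts and therefore depend on the offset that voom adds. Il7r (-0.7927 ± 0.8895, FDR 0.5792) and Vpreb3 (0.2677 ± 0.4051, FDR 0.6891) lay within 1 SE of 0. Dntt was at -0.2458 ± 1.873 (FDR 0.9417), although its mean CPM was 1.299 ± 1.594 (SD, n = 3) in wild-type and 24.1 ± 47.91 (SD, n = 4) in Smchd1 null lines, since 1 null line held nearly all of its counts.

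Which lines were included decided the calls. Within batch 2, that is without wild-type line 1, Igll1 (log2 fold change -6.511, FDR 0.0421) and Vpreb1 (-4.192, FDR 0.0341) were DE, 2 of 7 members beside 13.6% of all genes, and batch as a covariate gave the same 2 genes, also beside 13.6%. The wild-type arm within batch 2 consists of lines 2 and 3 alone, and batch 1 holds no Smchd1 null line. With wild-type lines 2 and 3 summed into 1 sample, none of the 7 members was DE, beside 0.00813% of all genes, and the FDR was 0.776 for Igll1 and 0.881 for Vpreb1. Without Smchd1 null line 3, which expressed the recombinase, Rag1 (-6.256, FDR 0.0475) and Rag2 (-4.985, FDR 0.03) were DE, beside 8.37% of all genes. With the replicate number as a block, although no shared origin is given for lines of the same number, Igll1 was DE (-4.787, FDR 0.036), beside 1.80% of all genes. Sample removal, voom without wild-type line 1 and Smchd1 null line 4, called none of the 7, beside 4.23% of all genes.

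Tests that do not weight samples called none of the members. The quasi-likelihood test of edgeR called 0 of 7 at an FDR under 0.05, beside 0.0975% of all genes, and 2 (Rag1 and Igll1) at an unadjusted p under 0.05, beside 11.5%. DESeq2 gave a p-value to 5 of the 7, with none for Rag1 and Dntt. Of these 5 it called 0 at an FDR under 0.05, beside 3.21% of the genes with an FDR, and 1 (Igll1) at an unadjusted p under 0.05, beside 13.0%. Over all alternatives that gave a value, the log2 fold change stayed below 0 for Rag1 (-6.742 to -2.45), Rag2 (-5.233 to -1.755), Vpreb1 (-6.268 to -2.065) and Igll1 (-6.901 to -4.787). It changed sign for Dntt (-0.843 to 4.217), Vpreb3 (-0.2096 to 0.7407) and Il7r (-2.381 to 0.253).

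**Figure D3:**
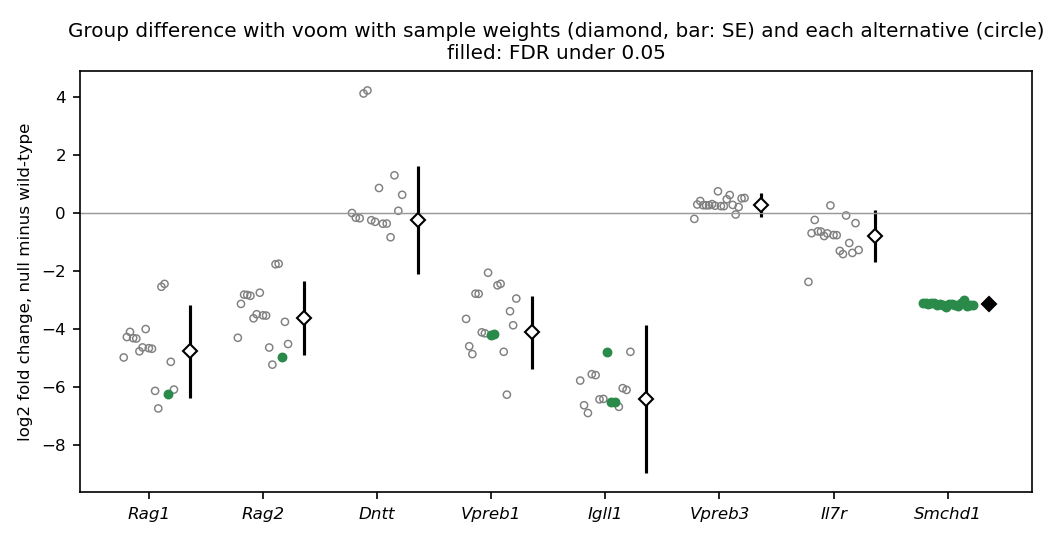
Each diamond is the log2 fold change, Smchd1 null minus wild-type, of 1 gene with voom with sample weights, with its SE as a bar; circles are the alternatives and filled symbols have an FDR under 0.05. Rag1, Rag2, Vpreb1 and Igll1 lie below 0 under every alternative that gave them a value, with at most 3 filled circles each, Dntt, Vpreb3 and Il7r scatter across 0, and Smchd1 is filled throughout, between -3.233 and -3.02.

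The end joining factors, which close the breaks that the recombinase makes, had at least 3 counts in all lines except for Polm in Smchd1 null line 4. Of the 15 genes, 3 were DE and higher in Smchd1 null lines, beside 11.9% of all genes tested (623 higher and 843 lower of 12303), a background that applies to each list in turn. Lig4, the ligase of this pathway, rose by a log2 fold change of 0.8157 ± 0.1208 (FDR 0.01137). It stood at 68.93, 41.5 and 42.94 CPM in wild-type lines and 80.27, 70.03, 84.64 and 62.77 CPM in Smchd1 null lines, so wild-type line 1 lay inside the range of the null lines. Xrcc6, which encodes the Ku70 subunit that holds DNA ends, rose by 0.6786 ± 0.1547 (FDR 0.03146), with wild-type line 1 at 344.4 CPM above 3 of the 4 null lines. Hmgb2, a DNA-bending cofactor of the recombinase, rose by 0.3519 ± 0.09554 (FDR 0.0494), but the groups overlapped. It was at 146.3 to 182.5 CPM in wild-type and 181 to 222.9 CPM in Smchd1 null lines. The median log2 fold change of the 15 genes was 0.1233, beside -0.0058 over all genes tested. Polm, a polymerase related to terminal transferase and named after its values were seen, was at 50.85 to 95.91 CPM in 5 lines, at 5.79 CPM in wild-type line 1 and at 0 counts in Smchd1 null line 4.

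Of the IL-7 receptor pathway, 11 of 12 genes were tested and 1 was DE, beside 11.9% of all genes. Jak3, the kinase that binds the common gamma chain, fell by 1.12 on the log2 scale (SE 0.2198, FDR 0.02148), from 29.78, 26.9 and 34.3 CPM to 10.96, 16.54, 10.97 and 24.74 CPM, with no overlap between groups. The median of the list was -0.086. The fold change of Il7r itself did not pass the test.

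Among 12 parts of the pre-B cell and B cell receptors, Cd79a and Syk rose and none fell, beside 11.9% of all genes called, with a median of 0.3486. Cd79a, a signalling chain of the receptor, had a log2 fold change of 0.9601 ± 0.2502 (FDR 0.04449). It was at 230.8, 181.2 and 211.3 CPM in wild-type lines and 408.9, 413.6 and 444 CPM in Smchd1 null lines 1 to 3, but at 100.4 CPM in Smchd1 null line 4, below every wild-type line. Syk, the kinase that the receptor activates, was at 177.8 to 256.5 CPM in wild-type and 293.2 to 504.7 CPM in Smchd1 null lines, with a log2 fold change of 0.566 ± 0.1469 (FDR 0.04404).

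Of 22 transcription factors of early B cells and of Rag control, 19 were tested, of which Spib and Ikzf1 rose and Ebf1 fell, beside 11.9% of all genes called, with a median of -0.1128. Spib, an ETS factor of B cells, had a log2 fold change of 1.039 ± 0.2006 (FDR 0.02035) and no overlap, with 136.3 to 209 CPM in wild-type and 217.8 to 443.1 CPM in Smchd1 null lines. Ikzf1, which encodes Ikaros, had a log2 fold change of 0.6047 ± 0.1415 (FDR 0.03352), with wild-type line 1 (649.6 CPM) inside the range of the Smchd1 null lines (540.5 to 754.2 CPM). Ebf1, a factor that switches on Igll1 and Vpreb1 in precursor B cells, fell by 0.6743 on the log2 scale (SE 0.183, FDR 0.0494). Its levels were 54.04, 87.1 and 71.96 CPM in wild-type lines and 48.57, 57.18, 47.88 and 25.53 CPM in Smchd1 null lines, so that Smchd1 null line 2 lay above wild-type line 1.

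Of 13 progenitor and precursor markers, 10 were tested, of which Il2ra and Spn rose, beside 11.9% of all genes called, with a median of -0.2759. Il2ra, the CD25 chain that marks pre-B cells in mouse marrow, was at 3.309, 3.609 and 6.302 CPM in wild-type lines and 30.36, 34.53, 29.04 and 76.87 CPM in Smchd1 null lines. Its log2 fold change was 2.842 ± 0.3036 (FDR 0.004077), and in the same null lines Vpreb1 and Igll1 were at 4.015 CPM or below. Spn, the CD43 antigen, rose by 0.7123 ± 0.1616 (FDR 0.03121), but the groups overlapped. It was at 87.1 to 108.1 CPM in wild-type and 105 to 229.9 CPM in Smchd1 null lines. Enpep, a pre-B cell antigen of the same list, went the other way without passing the test, at -8.122 ± 2.283 (FDR 0.05452). It was at 1.103 CPM or above in wild-type lines and 0.1606 CPM or below in Smchd1 null lines. With sample removal, DESeq2 and the replicate block it was called lower. The most abundant genes of this list were Cd24a (905.6 to 1904 CPM), Smarca4 and Akap12, whereas Kit and Cd34, genes of early progenitors, had no count in any line. Flt3, of the same list, was present in every line. It was at 5.413 to 12.41 CPM in wild-type and 1.081 to 127.7 CPM in Smchd1 null lines, highest in line 4. Of 14 mature B cell markers, 12 were tested and Tnfrsf13c, the receptor for BAFF, rose by 1.163 ± 0.3124 (FDR 0.048), with a median of 0.3434 for the list. It was at 10.75, 15.91 and 25.21 CPM in wild-type lines and 56.57, 49.79, 34.13 and 15.83 CPM in Smchd1 null lines, so that line 4 of the latter lay among the wild-type lines. Cd22 and Cd37 were among the most abundant of these. Cd22 was at 180 to 341.2 CPM in 6 lines and 25.4 CPM in Smchd1 null line 4. Other markers of this list were scarce. Fcer2a and Cr2 reached at most 0.3212 and 0.1481 CPM in any line. Ms4a1 reached at most 0.5514 CPM in wild-type lines, and in Smchd1 null lines it had a median of 0.6211 CPM and 12.82 CPM in line 3. None of 5 germinal centre and plasma cell markers tested was DE, and the most abundant, Sdc1, Xbp1 and S1pr2, reached at most 81.27 CPM.

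**Figure D4:**
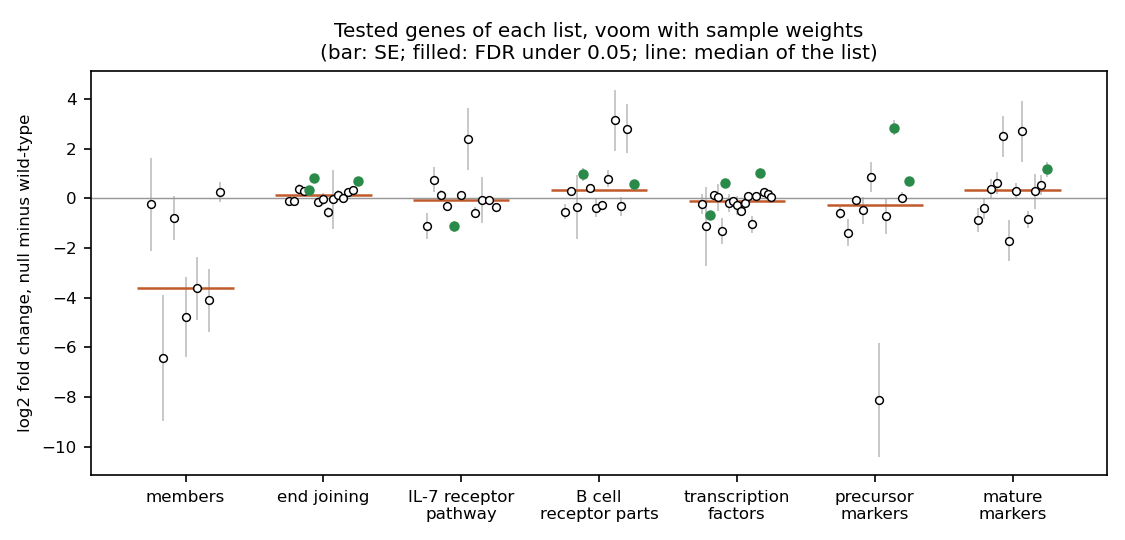
Points are the log2 fold changes (Smchd1 null minus wild-type, voom with sample weights) of the tested genes of each list with SE bars, filled where the FDR is under 0.05, and the orange line is the median of a list. The 7 members have a median of -3.63 and no filled point, and the medians of the 6 other lists lie between -0.2759 and 0.3486. The member median is the estimate of Rag2 (FDR 0.09772), which had 0 counts in Smchd1 null lines 1, 2 and 4.

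Of the 13 list genes named here as DE, all lost the call with voom alone and with the quasi-likelihood test of edgeR, and DESeq2 kept Spib and Il2ra. None was DE without wild-type line 2, without wild-type line 3 or with both summed into 1 sample, where 1 gene in all was called. Over 19 fits (18 for Lck), Il2ra was DE in 14, Lig4 in 12, Jak3 and Spib in 10, Ikzf1, Spn, Xrcc6 and Lck in 8, Cd79a, Syk and Ebf1 in 6, Tnfrsf13c in 4 and Hmgb2 in 2. The log2 fold change of Xrcc6 was 0.1484 without wild-type line 2, 0.1885 without wild-type line 3 and 0.1825 with both summed. Without wild-type line 2 it was -0.3139 for Ebf1, 0.3731 for Ikzf1 and 0.5386 for Lig4, and without wild-type line 3 it was 0.3019 for Ikzf1 and 0.2322 for Hmgb2. Within batch 2, Lig4, Xrcc6, Jak3, Syk, Spib, Ikzf1, Ebf1, Il2ra, Spn and Lck were DE.

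Markers of other cell types were few. Of 8 T cell markers, Cd3e, Cd8a and Trac had no count in any line, and the list summed to 17.55 to 62.86 CPM in wild-type and 1.124 to 13.43 CPM in Smchd1 null lines. Lck, a kinase of T cells that also occurs in some B lineage cells, made up most of it. It was at 60.93, 17.55 and 17.59 CPM in wild-type and 7.997, 0.9637, 2.78 and 11.44 CPM in Smchd1 null lines, and fell by 2.687 on the log2 scale (SE 0.6093, FDR 0.03121). Myeloid markers summed to at most 26.82 CPM, with S100a8, S100a9 and Elane at 0 in all lines. Erythroid markers summed to at most 1.124 CPM. Endothelial and stromal markers summed to 54.04 to 220.6 CPM, most of it Pecam1, which B cells also express, with Kdr, Dcn and Pdgfra at 0 in all lines. In wild-type line 1, the line with the highest Rag1, Pecam1 was at 44.12, Col1a1 at 5.514, Cdh5 at 3.584 and Col3a1 at 0.8272 CPM, and the part of such cells in the values of that line was not tested.

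For Rag1, Igll1 and Il7r the genes with the most similar profile over the 7 lines were sought among 11936 genes, by the root mean square difference of log2 CPM after each profile was centred on its mean. Nearest to Rag1 were Camkv (1.223), Igsf3 (1.357) and Pear1 (1.581), and Camkv was at 202.9 CPM in wild-type line 1, 9.422 CPM in Smchd1 null line 3 and 0 counts in Smchd1 null line 1. Nearest to Igll1 were Cep290 (0.6678), Tmtc3 (0.9403) and Enpep (1.257). Enpep, the BP-1 antigen of mouse pre-B cells, was at 34.45 and 40.31 CPM in wild-type lines 2 and 3 and at 1.103 CPM or below in the other 5. Nearest to Il7r were Gm11538 (0.4924), Rsph9 (0.7222) and Epha2 (0.7853). These are descriptions over 7 lines that share libraries and depth.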

How the data were processed

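RNA-seq was carried out on 7 lymphoma lines, 3 wild-type and 4 Smchd1 null. Per the labels and the study's methods section, reads were base called with CASAVA (version 1.8.2), aligned to mm10 with Subread and summarised with featureCounts, and the authors deposited raw counts per gene and a gene length, with no normalisation and no pooling. Each line is taken as 1 replicate, and p-values reflect the spread between these lines, which may include relatedness. Symbols and coordinates came from RefSeq (GRCm38.p6, the build of mm10), which matched 25275 of 27179 identifiers and 98.24% of counts. CPM (count over total count) and RPKM were computed from the deposited counts, with 95% exact Clopper-Pearson intervals and a floor of 3 counts that cover counting error only.

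A gene was kept if 3 or more samples reached 0.5 CPM, which left 12303 genes. These were fitted in R 4.3.3 with limma 3.58.1, using TMM factors from edgeR 4.0.16, voomWithQualityWeights, lmFit and eBayes, with Benjamini-Hochberg FDR over all genes. DESeq2 1.42.0 was an alternative. Only voom with sample weights was tried on simulated counts. These were drawn with 1 dispersion for every gene and line, so the trial does not cover the outlying lines that decided the member calls. The members and the 11 other lists (125 of 126 genes were found) were chosen with earlier results of these data known. Genes named are the 8 members, Smchd1, list genes called DE (at most the 6 of smallest FDR per list), the 3 most abundant genes of each stage list, and the 3 genes closest in profile to Rag1, Igll1 and Il7r. Ighm, Cd79b, Polm, Poll, Myb, Flt3, Ms4a1, Fcer2a, Cr2, the light chain genes and the markers at 0 were named after their values were seen. Coding sequence identity was computed from GENCODE M21 in place of the protein identity that had been planned. Results of some list genes are not reported here, and these genes stayed in every fit and count.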

Additional observations from a re-analysis of the deposited data

Results flagged for a closer look

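In the Smchd1 null group of 4 lines, a line was set apart where its gap to the nearest other line, divided by the range of the group, exceeded Dixon's 95% critical value. Of 31 values screened, 8 did so. Chance gives about 1 in 20 where all lines have measured values. This does not apply to the 6 values of members, since in each at least 1 other line had 0 counts. Rag1 was at 8.34 CPM in Smchd1 null line 3 and at most 0.5319 CPM in the other 3 lines, and Rag2 was at 5.406 CPM in the same line and at 0 in the others. Dntt was at 95.97 CPM in Smchd1 null line 1 and at most 0.3212 CPM elsewhere in the group. Smchd1 null line 2 was set apart for Vpreb1 (4.015 CPM, others at most 0.5319), for Igll1 (1.446 CPM, others at 0) and for Vpreb2 (0.3212 CPM, others at 0), the last of these from 2 counts. For Rag2, Igll1 and Vpreb2 the other lines are at 0, so that any count meets the criterion. Cd79a was at 100.4 CPM in Smchd1 null line 4, against 408.9 to 444 CPM in the others, and Il2ra was at 76.87 CPM in that line, against 29.04 to 34.53 CPM. Groups of 3, such as the wild-type lines, were not screened.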

How the results depend on the processing

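With voom with sample weights 1466 genes were DE. The count was 12 with voom alone, 493 with block weights, 521 with sample removal, 12 with edgeR, 382 with DESeq2, 222 with the replicate block, 1 with wild-type lines 2 and 3 summed, 2797 at an FDR under 0.1, and 1 to 1641 when each line was left out in turn (1 without wild-type line 2 or 3, 517 and 332 without Smchd1 null line 1 or 2, 1641 without wild-type line 1). Of the members 0 were DE, against 1 with the replicate block, 2 with batch as a covariate, 3 at an FDR under 0.1, and 0 to 2 when each line was left out (2 without wild-type line 1 or Smchd1 null line 3). The log2 fold change of Dntt turned positive with edgeR (4.112), DESeq2 (4.217), the replicate block (0.8549) and the summed lines (0.6197), and ranged from -0.843 to 1.292 when lines were left out. That of Vpreb3 was -0.2096 with voom alone and ranged from -0.059 to 0.613 when lines were left out, and that of Il7r was 0.253 with the replicate block. The causes of these changes were not tested. Of 114 member values under alternatives, 98 kept direction and side of the threshold, 7 passed it in the same direction and 9 reversed. Since no member was DE with voom with sample weights, fits that call few genes keep that side almost by design. The tally is therefore no measure of robustness. Rag1 with DESeq2, which gave it no FDR, was counted among the 98. All 16 group means of CPM moved by less than 1 SD with TMM library sizes. The TMM factors lay between 0.9791 and 1.033, so a shift as large as the SD between lines could not be expected.

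Across genotypes, the deviations of same-numbered lines from their group means correlated at -0.1455, 0.2277 and -0.1845. For 9 other pairs the correlation was 0.01669 on average (-0.2445 to 0.2031). With 3 same-numbered pairs these values cannot decide whether the replicate numbers pair the samples. Igll1 and Dntt failed the filter when lines that carried them were left out, and DESeq2 gave no FDR for Rag1 and Dntt. Depth limits statements below 0.8272 CPM in wild-type line 1 and 0.4921 CPM or less elsewhere.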
